A study of Mus musculus with 16 samples.

Results

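Of 73442 ATAC-seq peaks in CD4 thymocytes, 958 (1.30%) were low in the precursors of regulatory T (Treg) cells and open in the other 3 populations of CNS4-sufficient mice. ATAC-seq reads out chromatin accessibility, since its transposase cuts where DNA is not wrapped by nucleosomes. The peaks were chosen on the mean of the 2 CNS4-sufficient libraries of each population, in normalised reads, which are the reads of a peak scaled by 1 factor for each library. The smallest of the Treg, mSP and smSP means had to reach 30 and, with 1 added, at least 2 times the precursor mean plus 1.

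CNS4 is a conserved non-coding sequence at the locus of Foxp3, the transcription factor that defines Treg cells. Treg cells form in the thymus from CD4 single positive cells whose T cell receptor binds self-antigen strongly. Many of them pass through a precursor that carries CD25, the alpha chain of the IL-2 receptor, before Foxp3 is made.

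The mice were C57BL/6J with the genotype CNS4FL/YFoxp3GFP/Y (sufficient, FL) or CNS4KO/YFoxp3GFP/Y (deficient, KO), 2 of each, and all of them carried the Foxp3GFP reporter allele. The sorted populations were Treg (Foxp3-GFP positive), preTreg (CD25 positive, GFP negative), and 2 that lacked both, namely mSP (sorted as high TCRβ and low CD24) and smSP (low TCRβ and high CD24), both CD4 single positive. All 4 populations came from each mouse, which gave 16 libraries in 8 groups of 2. Age is not given in the labels. Library totals were 5585827 to 11437401 reads in peaks, with a median of 38 to 76 reads per peak.

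The deleted element at chrX:7570739-7571052 (mm10) had 0 reads in all 8 deficient libraries and 140 and 117 normalised reads in the Treg_FL libraries. A peak in the Foxp3 gene body at chrX:7583902-7584149 had 84.0 and 112 in Treg_FL, 207 and 170 in Treg_KO, and at most 3.69 in the other 12 libraries. The names mSP and smSP did not match the sort markers in any of the 4 mice, first at Cd24a, the gene of CD24. Summed over its 10 peaks, signal was 554 to 582 in the libraries labelled mSP and 257 to 340 in those labelled smSP. S1pr1, the receptor that guides mature thymocytes out of the thymus, was lower in mSP, at 1607 to 2108 over 35 peaks against 2916 to 3486. For deficient replicate 2, the descriptions of these libraries also name the opposite population from their titles. Both names are therefore labels here, and the choice of the 958 peaks is the same if they are exchanged.

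Of the 958 peaks, 33 overlapped a promoter window of RefSeq (GRCm38.p6, the assembly behind mm10), which runs from 250 bases before a start to 50 after it. The part of the window inside the peak is printed for 6 of them, 5′ to 3′ on the strand of the gene, to show promoters that differed in deficient Treg cells beside promoters that were not called different. They were chosen after their values were seen. Capitals mark matches to 12 short motifs searched on both strands.
Nhsl1 (chr10:18469731-18469876, plus strand): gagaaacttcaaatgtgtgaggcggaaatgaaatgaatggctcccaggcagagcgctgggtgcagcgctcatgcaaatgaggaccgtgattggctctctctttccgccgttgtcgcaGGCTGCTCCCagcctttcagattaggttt
Ccnjl (chr11:43528499-43528567, plus strand): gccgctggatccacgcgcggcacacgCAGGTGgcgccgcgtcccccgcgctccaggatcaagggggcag
Arpp21 (chr9:112185900-112186109, minus strand): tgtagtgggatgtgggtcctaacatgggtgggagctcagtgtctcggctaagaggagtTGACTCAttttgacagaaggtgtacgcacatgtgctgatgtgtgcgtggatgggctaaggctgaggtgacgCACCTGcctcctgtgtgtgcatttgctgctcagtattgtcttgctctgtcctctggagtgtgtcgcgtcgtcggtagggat
Trpm1 (chr7:64185377-64185508, plus strand): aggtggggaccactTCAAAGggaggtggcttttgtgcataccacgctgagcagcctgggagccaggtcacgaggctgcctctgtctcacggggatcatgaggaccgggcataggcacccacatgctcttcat
Inpp5a (chr7:139400379-139400543, plus strand): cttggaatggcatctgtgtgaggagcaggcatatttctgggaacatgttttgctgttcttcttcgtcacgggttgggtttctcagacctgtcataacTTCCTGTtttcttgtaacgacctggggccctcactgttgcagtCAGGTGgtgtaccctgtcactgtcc
Iftap (chr2:101628992-101629165, minus strand): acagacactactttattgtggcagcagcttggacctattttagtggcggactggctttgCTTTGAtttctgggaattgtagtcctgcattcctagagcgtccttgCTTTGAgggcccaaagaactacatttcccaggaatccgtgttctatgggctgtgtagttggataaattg

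At the first pair, Nhsl1 and Ccnjl, the Treg signal was called lower in deficient mice. Nhsl1, a relative of an actin-remodelling protein, had 113 and 147 normalised reads in Treg_FL and 66.9 and 80.6 in Treg_KO. Ccnjl, a cyclin-like gene, had 66.8 and 62.1 in Treg_FL and 28.0 and 39.4 in Treg_KO. The groups did not overlap at either promoter, and the log2 differences were -0.80 and -0.94 (limma adjusted p = 0.0252 and 0.0334). In preTreg_KO the Nhsl1 peak had 71.1 and 97.4, so Treg_KO lay in or below the precursor range there.

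The Arpp21 promoter peak had 51.6 and 48.3 in Treg_FL and 29.2 and 31.7 in Treg_KO, a log2 difference of -0.70 that did not pass the test across all peaks (limma adjusted p = 0.268). At the promoter of Inpp5a, an inositol phosphatase, Treg_FL had 99.1 and 116 and Treg_KO 131 and 132. The Iftap window lies in a peak within the body of Rag2, which encodes a subunit of the V(D)J recombinase. That peak had 166 and 137 in Treg_FL and 102 and 144 in Treg_KO, so its groups overlapped. The Trpm1 peak, in a gene of an ion channel, had 109 and 103 in Treg_FL and 88.8 and 104 in Treg_KO. In deficient mice the last 3 peaks were all higher in Treg than in preTreg cells, where they had 21.2 to 68.9 normalised reads (limma adjusted p = 3.81e-06 for Inpp5a, 0.00148 for Rag2 and 4.19e-05 for Trpm1).

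The letters CAGGTG, the E-box form bound by the E proteins HEB and E2A, are in the Ccnjl, Arpp21 and Inpp5a stretches. CTTTGA, read by TCF and LEF factors, is in the Trpm1 stretch and at 2 positions of the Iftap stretch. The AP-1 letters TGANTCA are in the Arpp21 stretch, the ETS letters ACAGGAA in Inpp5a and the NF-kB motif in Nhsl1. The 33 peaks overlapped 36 whole promoter windows. CAGGTG was in 27.8% of these, in 17.7% of the 11551 windows with any peak and in 20.2% of all 32851 windows. CTTTGA was in 25.0% of the 36 and 11.5% of the windows with any peak. In the same order of 3, shares were, for the E-box CAGCTG, 22.2%, 14.2% and 16.3%. They were 16.7%, 27.1% and 20.7% for NF-kB, 41.7%, 36.9% and 29.2% for the KLF letters GGGNGTG, and 11.1%, 4.38% and 7.81% for TGANTCA. The letters for RUNX (TGTGGT), ETS, GATA factors (AGATAA), forkhead (TGTTTAC), NFAT with AP-1 and CRE (TGACGTC) were each in at most 4 of the 36 windows. Shares in the same order were 11.1%, 5.48% and 11.2% for GATA and 8.33%, 12.1% and 16.8% for RUNX. The motifs can overlap each other, and these shares describe 36 windows without a test.

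Most of the 958 peaks lay far from any start. The median distance to a start was 23.1 kb, against 5.25 kb over all peaks, and 68.0% were over 10 kb away, against 41.4%. Promoter windows held 3.44% of them and 17.4% of all peaks. Bodies of protein-coding genes held 52.7%, against 68.3%, and 25.3% had no such gene within 50 kb, against 7.35%. The 2561 peaks that were open in both single positive populations and low in both preTreg_FL and Treg_FL shared this distal position, with 71.6% over 10 kb from a start. The 958 peaks touched 522 protein-coding genes, of which 127 had at least 2.

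**Figure D1:**
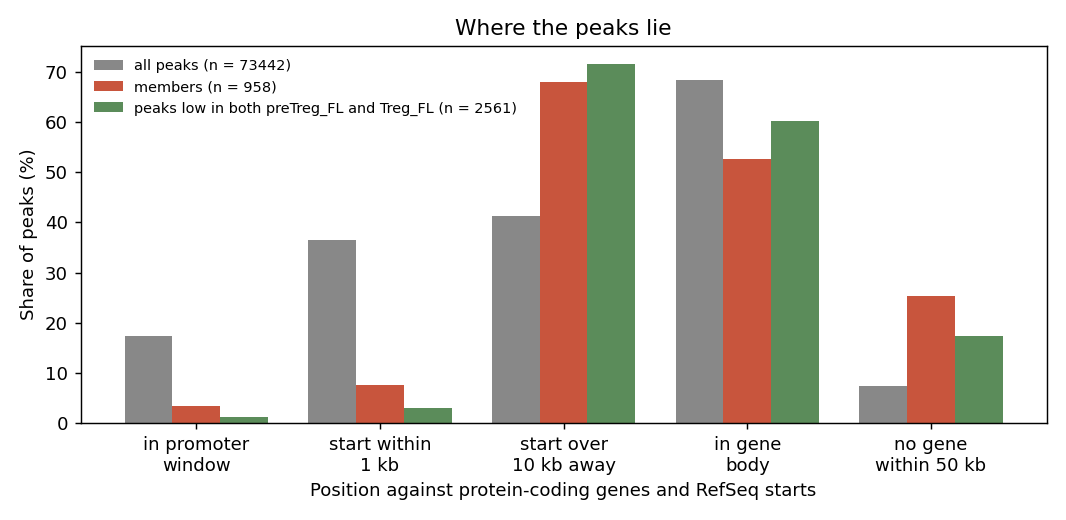
Share of peaks (%) at each kind of position, for all 73442 peaks, the 958 chosen peaks and the 2561 peaks low in both preTreg_FL and Treg_FL. The chosen peaks have a smaller share in promoter windows (3.44% against 17.4% of all peaks) and a larger share without a protein-coding gene within 50 kb (25.3% against 7.35%).

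In the libraries that chose them, the median of the 958 peaks was 23.1 and 22.9 normalised reads in preTreg_FL and 60.7 and 62.1 in Treg_FL. It was 70.6 and 69.0 in mSP_FL and 62.1 and 63.5 in smSP_FL. These levels are the rule itself and carry no test. Among the open populations mSP_FL was highest at 494 peaks (51.6%), smSP_FL at 233 and Treg_FL at 231. The ratio of the rule had a median of 2.27, and its highest value was 4.67, at a peak in the body of Cnksr3, which encodes a scaffold of kinase signalling. That peak, at chr10:7173191-7173385, had 18.8 and 22.1 in preTreg_FL and 98.7 to 129 in the other 6 sufficient libraries. Next in order were peaks in Mfsd4a (ratio 4.50), at chr17:52506845-52507151 with no protein-coding gene within 50 kb (4.33) and in Tns1 (4.30).

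Peaks near the limits differed little from those left out. Just inside the ratio were chr15:36901929-36902142 (2.0002) and chr12:12580742-12581026 (2.0005), and just outside were peaks in Glis3 (1.9998) and Plxdc2 (1.9997). For the level, a peak in Rgsl1 (smallest mean 30.01) and a peak without a gene (30.11) were just inside. A Bach2 peak (29.96) and a Tmem114 peak (29.94) were just outside.

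The deficient mice took no part in the choice, so they show whether the same peaks were low in precursors again. Against the single positive populations they were. The median of the 958 peaks was 29.5 and 29.4 normalised reads in preTreg_KO, 70.0 and 71.8 in mSP_KO and 60.5 and 65.2 in smSP_KO. In limma fits on log2(value + 1) over 73140 peaks, 849 of the 958 (88.6%) were called higher in mSP_KO than in preTreg_KO, where 20.9% of all peaks were. For smSP_KO the count was 752 (78.5%), where 13.8% of all peaks were called. The median log2 differences were 1.29 and 1.10. A call means a Benjamini-Hochberg adjusted p under 0.05 over all peaks tested.

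Against Treg cells of the deficient mice the dip was smaller. The median was 41.3 and 46.1 normalised reads in Treg_KO, between the precursors and the single positive cells. Of the 958 peaks, 313 (32.7%) were called higher in Treg_KO than in preTreg_KO (5.73% of all peaks) and 3 lower (6.98% of all peaks), with a median log2 difference of 0.56. Both preTreg_KO libraries lay below both Treg_KO libraries at 618 peaks (64.5%, against 25.5% of all peaks). All 3 comparisons were called at 273 peaks (28.5%, against 1.44% of all peaks), and 436 (45.5%) were called against mSP_KO and smSP_KO but not against Treg_KO. The share of all peaks with that last pattern was not counted. The 2561 peaks low in both preTreg_FL and Treg_FL went the other way, with 683 (26.7%) called lower in Treg_KO than in preTreg_KO, 9 higher, and a median of -0.57.

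Each mouse gave all 4 populations, so the difference can be read within an animal. The median log2 difference of Treg from preTreg at the 958 peaks was 1.32 and 1.35 in the sufficient mice, which the rule used, and 0.48 and 0.64 in the deficient mice. The differences of mSP from preTreg in the deficient mice were 1.29 and 1.24, and those of smSP 1.05 and 1.14. The rule itself was met by the deficient libraries at 246 peaks, and 102 of these were among the 958, which is 41.5% of the 246 and 10.6% of the 958. Without a preTreg_KO or Treg_KO library the count called higher in Treg_KO was 20.6% to 25.4% of the 958 peaks.

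**Figure D2:**
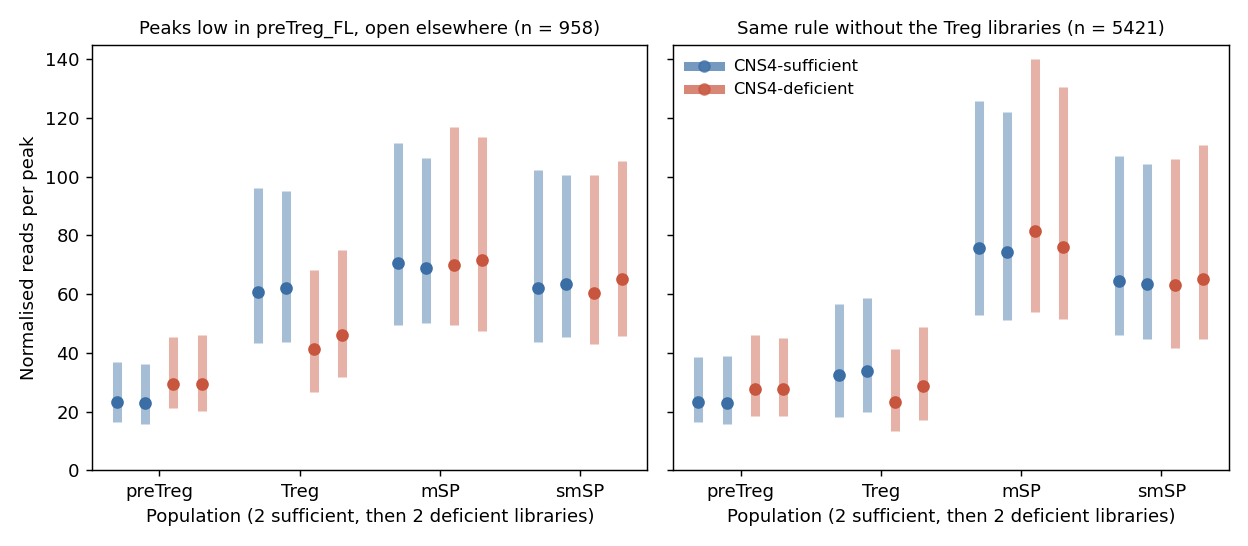
Normalised reads at the 958 peaks in each of the 16 libraries, as the median (dot) with the quartiles (bar), with the 5421 peaks chosen without Treg libraries in the right panel. At the 958 peaks the preTreg libraries lie lowest in both genotypes (22.9 to 29.5), and the Treg_KO libraries (41.3 and 46.1) lie below the Treg_FL libraries (60.7 and 62.1).

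The peaks that kept the dip most clearly in deficient mice were distal or intragenic sites. In Ube2e2, a gene of a ubiquitin-conjugating enzyme, the peak at chr14:18670787-18671062 had 54.5 and 43.2 normalised reads in preTreg_KO and 158 and 153 in Treg_KO. It had 165 and 156 in mSP_KO and 183 and 178 in smSP_KO. Its log2 difference of Treg_KO from preTreg_KO was 1.66 ± 0.18 (SE, limma adjusted p = 4.28e-07), and in both genotypes its lowest library of another population had 121, against at most 54.5 in precursors. At the Cnksr3 peak preTreg_KO had 23.1 and 21.1 and Treg_KO 97.3 and 75.8, a log2 difference of 1.91 (limma adjusted p = 2.66e-06).

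The peak with the largest dip in deficient mice was chr3:52500138-52500297, with no protein-coding gene within 50 kb. It had 4.62 and 1.84 normalised reads in preTreg_KO, 21.9 and 43.2 in Treg_KO and 29.6 to 50.0 in the 4 single positive libraries of deficient mice. It was also the only one of the 958 called lower in preTreg_KO than in preTreg_FL, where it had 18.0 and 13.2 (log2 difference -2.04, limma adjusted p = 0.0122). Next by the same measure were chr4:7198709-7198910, which has no protein-coding gene within 50 kb, and peaks at Cnksr3, Satb1, Kcnj15, Ube2e2 and Rrp1. Their log2 differences of Treg_KO from preTreg_KO were 1.62 to 1.91.

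In Treg cells, the chosen peaks were less accessible in deficient than in sufficient mice. Of the 958, 139 (14.5%) were called lower in Treg_KO than in Treg_FL, where 1.08% of all peaks were. None was called higher in limma, edgeR or DESeq2, where 0.693% of all peaks were by limma. An unadjusted limma p under 0.05 in either direction was found at 484 of the 958, against 10601 of the 73140 peaks tested. The median log2 difference was -0.51, with quartiles of -0.76 and -0.26, and 91.2% lay below 0, while the median over all peaks tested was 0.00135. Both Treg_KO libraries lay below both Treg_FL libraries at 689 peaks (71.9%, against 22.1% of all peaks) and above them at 19 (1.98%, against 23.3%). Treg_FL helped to choose these peaks, which selects high values in it, so these counts describe the peaks and are not a test of the genotype. The same holds for every p-value given for a single chosen peak in this comparison, also where 1 library was left out.

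The count depended on single libraries. It was 26 without Treg_FL replicate 1, 37 without Treg_FL replicate 2, 20 without Treg_KO replicate 1 and 201 without Treg_KO replicate 2. The median stayed between -0.58 and -0.42 over these. In bulk cells, fewer cells with an open site and less accessibility in each cell cannot be told apart.

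The choice can be made without the compared libraries. A choice on mSP_FL, smSP_FL and preTreg_FL alone, with the same thresholds, gave 5421 peaks, which the Treg libraries did not select. There 392 (7.23%) were called lower in Treg_KO and 11 higher, with a median of -0.33 and 77.5% below 0. Those 392 were 49.8% of all 787 peaks called lower in Treg_KO, and the 139 were 17.7%. The count of 392 fell and rose with the same libraries as the count over all peaks. The median lay between -0.46 and -0.18 when 1 library was left out. A choice on the matching deficient libraries gave 4759 peaks, of which 349 were called lower and 13 higher, again with a median of -0.33.

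The rule was also applied to 1 sufficient mouse and the comparison made with the other. The 1146 peaks chosen on FL replicate 1 had a median log2 difference of Treg_KO from Treg_FL replicate 2 of -0.41, with 85.8% below 0. The 1277 peaks chosen on FL replicate 2 had -0.37 against replicate 1, with 83.5% below 0. In the other sufficient mouse, Treg cells stood above preTreg cells by 1.03 and 0.97 at these peaks, and in deficient mice by 0.35 to 0.56. The 364 peaks open in Treg cells alone, chosen on libraries of both genotypes, had a median of +0.14 in the same comparison. Their medians were 62.2 and 64.9 normalised reads in Treg_FL and 76.6 and 65.3 in Treg_KO. The genotype difference there was also above 0 in preTreg (0.16), mSP (0.15) and smSP (0.42).

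**Figure D3:**
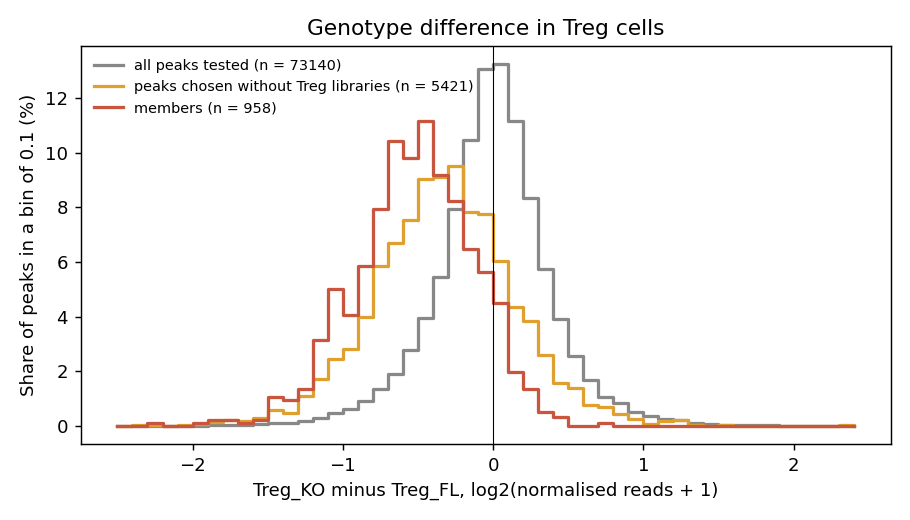
Distribution of the log2 difference of Treg_KO from Treg_FL for the 958 chosen peaks, the 5421 peaks chosen without Treg libraries and all 73140 peaks tested, as the share of peaks (%) per bin. The median is -0.51 for the chosen peaks and -0.33 for those chosen without Treg libraries, and all peaks centre near 0.

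Loss in Treg_KO did not always reach the precursor level. At 181 of the 958 peaks (18.9%) the Treg_KO mean was at least 2 times the preTreg_KO mean, at 631 (65.9%) 1 to 2 times and at 146 (15.2%) below it. Of the 139 peaks called lower in Treg_KO, 62 had a Treg_KO mean not above preTreg_KO, and 20 were still called above preTreg_KO. At 120 of the 139, mSP_KO and smSP_KO were both called above preTreg_KO. Of the 273 peaks low in precursors against all 3 deficient populations, 18 were among the 139.

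Of the 5 peaks with the lowest Treg_KO values relative to Treg_FL, 4 lay in the body of a protein-coding gene and 1 at the start of the non-coding gene Gm41600. Treg_FL helped to choose them, so their p-values describe them and do not test the genotype. A peak in Med12l, which encodes a Mediator subunit, at chr3:59042507-59042682 had 46.5 and 62.8 normalised reads in Treg_FL and 12.2 and 8.64 in Treg_KO. Its log2 difference was -2.29 ± 0.34 (SE, limma adjusted p = 0.000254), and it stayed called without any 1 of the 4 Treg libraries. In Pla2r1, a gene of a phospholipase receptor, the peak at chr2:60505253-60505408 had 40.5 and 50.4 in Treg_FL and 12.2 and 12.5 in Treg_KO (log2 difference -1.79, limma adjusted p = 0.00167, called without any 1 library). At the Med12l peak both Treg_KO libraries lay below all 4 precursor libraries, and at the Pla2r1 peak below 3 of the 4. The Med12l peak was also at 16.1 and 29.3 in smSP_KO, below both smSP_FL libraries (41.4 and 54.9).

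The other 3 rested on fewer libraries. A peak in Ldlrad3 had 27.3 and 34.5 in Treg_FL and 6.08 and 8.64 in Treg_KO (log2 difference -1.94, limma adjusted p = 0.00207, and 0.0524 and 0.0571 without Treg_FL replicate 2 or Treg_KO replicate 1). The lowest Arpp21 peak had 32.4 and 31.1 in Treg_FL and 3.65 and 16.3 in Treg_KO (-1.87, limma adjusted p = 0.0125). Without Treg_KO replicate 1 it was -0.92 with an adjusted p of 0.444, and without a Treg_FL library the adjusted p was 0.126 or 0.0917. At chr17:52304403-52304560, the Gm41600 peak, Treg_FL had 55.6 and 55.9 and Treg_KO 8.51 and 26.9 (-1.80, limma adjusted p = 0.00417, and -1.03 with 0.281 without Treg_KO replicate 1). Without a Treg_FL library the adjusted p there was 0.0628 or 0.0516.

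At the other end, the 5 peaks with the highest Treg_KO values relative to Treg_FL were not called. A peak near Ebf1, a B cell factor, had 51.6 and 40.7 in Treg_FL and 76.6 and 74.9 in Treg_KO (log2 difference 0.71, limma adjusted p = 0.199). A peak 32.6 kb from Lrrc32, which encodes the Treg surface protein GARP, had 55.6 and 64.2 in Treg_FL and 90.0 and 75.8 in Treg_KO (0.46, limma adjusted p = 0.444). The others lay in Ddx46, Inpp5a and Tctex1d1.

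**Figure D4:**
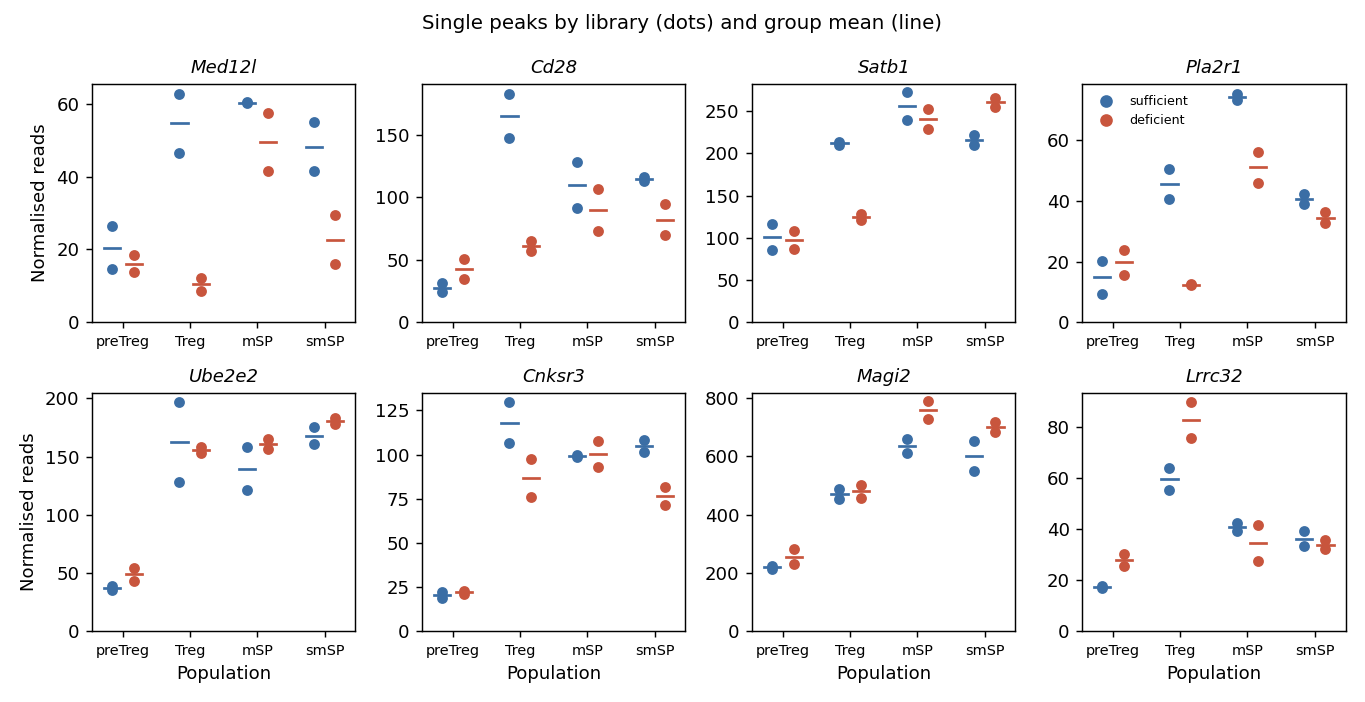
Normalised reads in each of the 16 libraries (dots) with group means (lines) at 8 single peaks, for sufficient and deficient mice. At the Med12l, Pla2r1 and Cd28 peaks both Treg_KO libraries lie below both Treg_FL libraries, while at the Ube2e2 and Cnksr3 peaks they stay above the preTreg libraries.

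Genes of the T cell receptor response and of co-stimulation held 8 of the 958 peaks, among 469 peaks of 26 genes (1.71%, near the 1.30% of all peaks). In deficient mice 6 of the 8 were called higher in Treg than in preTreg cells (32.7% of the 958, 5.73% of all peaks). Of the 8, 2 were called lower in Treg_KO than in Treg_FL (14.5% and 1.08%). Both of the latter lie 32 kb from the body of Cd28, the co-stimulatory receptor that Treg development needs. The one at chr1:60713768-60713921 had 148 and 183 normalised reads in Treg_FL and 57.2 and 65.3 in Treg_KO, where preTreg_KO had 35.1 and 50.5. Its log2 difference was -1.41 ± 0.23 (SE, limma adjusted p = 0.000701), and it was -1.57 to -1.26 when 1 Treg library was left out. Treg_FL helped to choose the peak, so its p-value is not a test of the genotype. Its neighbour had 129 and 125 in Treg_FL and 53.5 and 51.8 in Treg_KO (-1.26, limma adjusted p = 0.00175).

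The other 6 chosen peaks of the list were not called different between Treg_KO and Treg_FL. Among the 459 tested peaks of the list that were not chosen, 3 were called higher and 2 lower in Treg_KO. Near Dusp4, a phosphatase of the MAP kinases, Treg_KO had 101 and 88.3 normalised reads and preTreg_KO 17.5 and 28.5, a log2 difference of 2.03 (limma adjusted p = 4.90e-05). In Nr4a1, an immediate early gene of receptor signalling, Treg_KO had 71.8 and 68.2 and preTreg_KO 18.5 and 32.2 (1.48, limma adjusted p = 0.00129). Peaks at Bcl2l11, the death factor BIM, at Egr2 and at Icos were also called higher in Treg_KO than in preTreg_KO. At these 5 the log2 differences of Treg_KO from Treg_FL were -0.49 to 0.28.

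The list called immature thymocyte has 23 genes, among them Cd4, and shares Satb1 and Lef1 with the quiescence list described below. It held 30 of the 958 peaks, which is 8.11% of its 370 peaks, against 1.30% of all peaks. In deficient mice 25 of the 30 were called higher in mSP, 25 in smSP and 5 in Treg than in preTreg cells. These shares were 88.6%, 78.5% and 32.7% over the 958, and 20.9%, 13.8% and 5.73% over all peaks. The median log2 difference of Treg_KO from Treg_FL over the 30 was -0.75, against -0.51 for the 958. Of the 30, 6 were called lower (14.5% of the 958 and 1.08% of all peaks were). These were 4 Arpp21 peaks, 1 Satb1 peak and 1 peak near Cd8b1, the CD8 beta chain (log2 difference -0.86, limma adjusted p = 0.0444). The other 336 tested peaks of the list had a median of -0.23, with 13 called lower, where 1.08% of all peaks were.

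Arpp21, a gene of an RNA-binding phosphoprotein that is active in immature thymocytes, held the most, 10 of its 20 peaks. All 10 had a lower mean in Treg_KO than in Treg_FL, by -1.87 to -0.60 on the log2 scale. The peak at chr9:112213868-112214037 had 118 and 120 normalised reads in Treg_FL and 54.7 and 54.7 in Treg_KO (-1.11, limma adjusted p = 0.00297). It was still called above preTreg_KO, which had 34.2 and 30.3. In Satb1, the chromatin organiser that prepares Treg enhancers in the thymus, the peak at chr17:51762505-51762814 had 210 and 213 in Treg_FL and 122 and 129 in Treg_KO (-0.76, limma adjusted p = 0.00562). Its adjusted p was 0.0620 to 0.0894 without a Treg_FL library or without Treg_KO replicate 1. Another Satb1 peak, 24.4 kb outside the gene, stayed above the precursors, with 29.2 and 36.5 in Treg_KO and 10.2 and 8.27 in preTreg_KO (1.73, limma adjusted p = 0.000456).

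Signal of the same list outside the chosen peaks moved in the same comparison. Peaks were assigned to 22 of its 23 genes, and over the 340 not chosen the sum was 27366 to 28176 normalised reads in Treg_FL and 23594 to 24791 in Treg_KO. It was 22835 to 23353 in preTreg_FL, 24078 to 24298 in preTreg_KO and 28070 to 31847 in the single positive libraries. Over 10 further peaks of Arpp21 the sums were 1179 and 1296 in Treg_FL and 670 and 829 in Treg_KO. The 1 peak of Rag1, the other recombinase subunit, had 36.4 and 48.3 in Treg_FL, 29.2 and 46.1 in Treg_KO and 177 to 228 in the libraries labelled mSP. The summed Treg signature was higher in Treg_KO, at 27491 to 30134 against 26169 to 26605, over 265 peaks. The part of the cells' makeup in the lower Treg signal was not tested.

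The E protein and Id list held 3 of the 958 peaks (4.69% of its 64 peaks, against 1.30% of all peaks), all at Tcf4, a partner of HEB and E2A. All 3 were called lower in Treg_KO than in Treg_FL (14.5% of the 958 and 1.08% of all peaks were). Their log2 differences were -0.91, -1.31 and -0.99 (limma adjusted p = 0.0390, 0.0213 and 0.0168). Treg_KO had 14.6 to 37.4 normalised reads there, Treg_FL 44.5 to 73.8 and preTreg_KO 20.3 to 56.3, so Treg_KO and preTreg_KO overlapped. The call of the first was lost without any 1 Treg library, with adjusted p of 0.0535 to 0.263. That of the third was lost without Treg_FL replicate 2 (-0.75, limma adjusted p = 0.266), without Treg_KO replicate 1 (-0.72, 0.338) and by DESeq2 (adjusted p = 0.0609). DESeq2 did not call the first either (adjusted p = 0.125), and for the second no such alternatives are given. Of the 61 other peaks of the list, 1 was called lower in Treg_KO than in Treg_FL, with a median of -0.10.

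The mature thymocyte and egress list had 10 of the 958 peaks (5 of them at Foxp1), which is 2.92% of its 343 peaks. Of the 10, 4 were called higher in Treg_KO than in preTreg_KO (32.7% of the 958, 5.73% of all peaks). The peak near Klf2, which drives egress genes, had 139 and 136 normalised reads in Treg_KO and 77.6 and 53.3 in preTreg_KO (log2 difference 1.08, limma adjusted p = 0.000840). Their median difference of Treg_KO from Treg_FL was -0.44, near the -0.51 of the 958 peaks. The quiescence list, with naive cell factors such as Foxp1, Satb1 and Bach2, had 21 of the 958 (2.93% of its 717 peaks). Their median was -0.40, with 1 called lower, the Satb1 peak.

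The Treg signature held 4 of the 958 peaks, which is 1.49% of its 269 peaks, near the 1.30% of all peaks. They were 2 near Lrrc32 and 1 each at Ikzf2 and Il2ra, with a median difference of Treg_KO from Treg_FL of -0.01. Il2ra encodes CD25, the marker by which the precursors were sorted. Its peak at chr2:11637313-11637429 was nonetheless low in them, with 23.1 and 30.0 normalised reads in preTreg_FL, 32.3 and 18.4 in preTreg_KO, and 48.0 to 86.1 in the other 12 libraries. In deficient mice it was higher in Treg than in preTreg cells by 1.04 on the log2 scale (limma adjusted p = 0.00961).

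Marker lists of other cell types held few peaks in all. Of 10 B cell peaks 2 were among the 958, both at Ebf1, of 27 myeloid peaks 1, at Flt3, and of 20 erythroid and stromal peaks 1, at Gata1, where 1.30% of all peaks were. They had differences of Treg_KO from Treg_FL of 0.71, 0.07, -0.55 and -0.39 on the log2 scale. Of the 92 peaks of the innate-like T cell list none was among the 958. Over its 8 other peaks the B cell list summed to 405 to 417 normalised reads in Treg_FL and 529 to 562 in Treg_KO.

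Of the chosen peaks, 512 of the 958 (53.4%) were in 186 runs, in which each lies at most 100 kb from the next. The share of all peaks, or of a comparable set, in such runs was not counted. Chosen peaks can also abut, as do chr13:28693163-28693283 and chr13:28693284-28693423, so neighbours are not always separate sites. The longest run held 24 of the 49 peaks in chr13:28664129-28959280. It includes Sox4, a factor of thymocyte development at chr13:28948919-28953699, and reaches 285 kb below the lower-coordinate end of that gene, over the non-coding genes 2610307P16Rik and Gm46405. The median over the 24 was 53.0 normalised reads in Treg_FL, 31.0 in Treg_KO, 18.5 in preTreg_FL and 23.3 in preTreg_KO. All 24 had a lower mean in Treg_KO than in Treg_FL, with a median log2 difference of -0.77. Of the 24, 6 were called lower (14.5% of the 958 and 1.08% of all peaks were). The other peaks of the run had a median of -0.60, so the lower Treg_KO signal was not limited to the chosen ones.

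**Figure D5:**
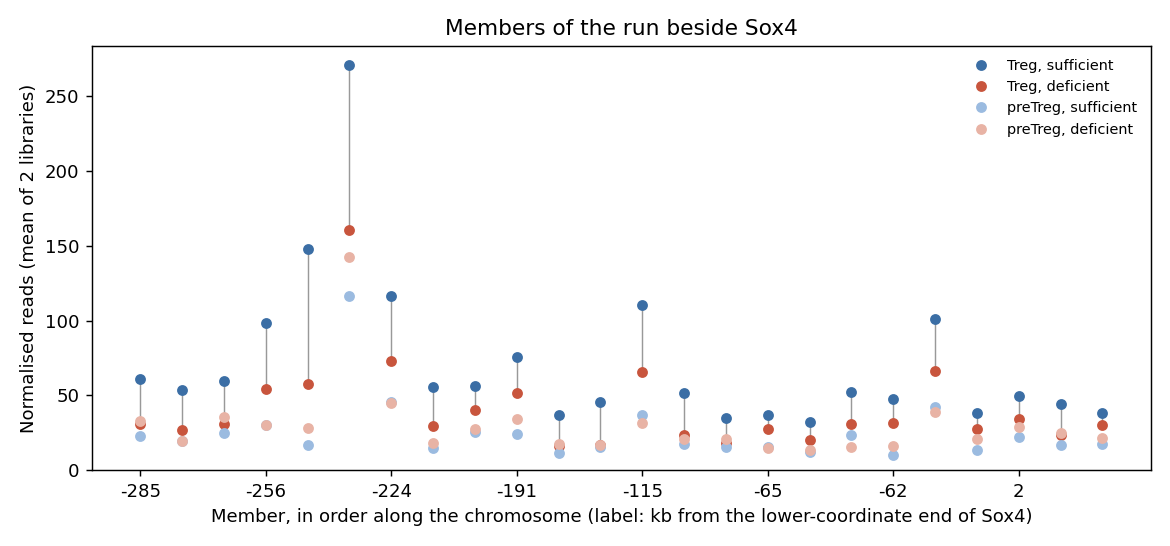
Mean normalised reads in Treg_FL, Treg_KO, preTreg_FL and preTreg_KO at the 24 chosen peaks of the Sox4 run, in order along the chromosome and evenly spaced, with labels that give the distance (kb) from the lower-coordinate end of Sox4. Treg_KO lies below Treg_FL at all 24 peaks.

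A run of 5 of 6 peaks at chr14:53766602-53804541 lies in Tcra, the T cell receptor alpha locus, over the variable segments Trav15-3 and Trav13-5. All 5 were called lower in Treg_KO (14.5% of the 958 and 1.08% of all peaks were), with a median of -1.07. The one over Trav15-3 had 96.1 and 78.7 normalised reads in Treg_FL and 28.0 and 41.3 in Treg_KO, where preTreg_KO had 36.0 and 35.8 (-1.33, limma adjusted p = 0.00344). V(D)J recombination joins such segments and removes the DNA between them. The run was picked out after its values were seen.

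Other runs split between loss and retention. The run over Gm41600 at chr17:52278573-52348778 held 6 of 8 peaks, with a median of -1.13 and 3 called lower. All 3 chosen peaks of Chl1, a cell adhesion gene with 21 peaks, were called lower in Treg_KO. At Chst11, a sulfotransferase gene with 25 peaks, 3 of the 4 chosen were. Of the 958 peaks 14.5% were called lower, and of all peaks 1.08%. At Cers6, a ceramide synthase gene, 4 of 6 chosen peaks were called above preTreg_KO (32.7% of the 958 and 5.73% of all peaks were). The median difference of Treg_KO from Treg_FL at the 6 was -0.40. All 5 chosen peaks at chr10:19116838-19241874 were called above preTreg_KO in Treg_KO, with a median difference from Treg_FL of -0.22.

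In precursors the same peaks were somewhat higher in deficient mice. Of the 958, 13 (1.36%) were called higher in preTreg_KO than in preTreg_FL, where 0.357% of all peaks were, and 1 lower, where 0.0520% were. The median log2 difference was 0.33, and both preTreg_KO libraries lay above both preTreg_FL libraries at 439 peaks (45.8%, against 21.4% of all peaks) and below them at 38 (3.97%, against 20.4%). Low values in preTreg_FL chose these peaks. With the choice on 1 sufficient mouse and the comparison with the other, the medians were 0.09 and 0.13, and with the choice on deficient libraries 0.04. A peak in Usp6nl had 27.4 and 30.9 normalised reads in preTreg_FL and 68.3 and 68.0 in preTreg_KO (log2 difference 1.20, limma adjusted p = 0.00155). A peak near Lrrc32 had 13.7 and 13.2 in preTreg_FL and 33.2 and 31.2 in preTreg_KO (1.20, limma adjusted p = 0.0272).

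In the single positive populations the medians were near 0, at 0.02 in mSP and -0.03 in smSP. No peak of the 958 was called in either population by limma, where 0.163% of all peaks were called higher and 0.0834% lower in mSP, and 0.0369% and 0.0479% in smSP. At an unadjusted limma p under 0.05 there were 70 of the 958 peaks in mSP and 65 in smSP, against 7043 and 7338 of the 73140 peaks tested. By edgeR 3 were called in mSP and 1 in smSP, and by DESeq2 1 in each, of 91 peaks with an adjusted p.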

How the data were processed

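ATAC-seq was run on 16 libraries of 4 thymic populations from 2 CNS4-sufficient and 2 CNS4-deficient mice. Per the submitters' processing notes, Trimmomatic 0.36, STAR 2.5.4b, SAMtools 1.10, Genrich, DESeq2 1.24.0 and R 3.6.3 were used with mm10, and the version of Genrich and any transposase offset are not given in the sources used here. The deposited signal is the authors' count of reads in each peak, scaled by 1 size factor for each library (0.697 to 1.45). All values were whole multiples of 1 read within 0.0001, so whole reads were recovered.

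Peaks whose mean over all libraries was 10 or more (73140 in number, all 958 chosen ones among them) were tested in R 4.3.3 with limma 3.58.1, using a trended and robust variance prior and log2(value + 1). Adjustment was Benjamini-Hochberg within each contrast at 0.05. Differences between populations were fitted on the 8 deficient libraries, and differences between genotypes on all 16. The added 1 pulls differences at weak peaks towards 0, but limma differences were not always the smaller ones. At the lowest Arpp21 peak the log2 difference was -1.87 by limma, -1.57 by edgeR and -1.60 by DESeq2. At the Med12l peak it was -2.29, -2.43 and -2.42. The 2 libraries of a group came from different mice, and 2 against 2 in an exact permutation test cannot go below 0.333, so none is given. edgeR 4.0.16 and DESeq2 1.42.0 on recovered reads, a pseudocount of 5, no filter, a block and leaving out each library were alternatives. In simulated data with 200 of 73140 peaks changed, 2-fold and 4-fold changes were recovered in 51% and 95% of cases for Treg against preTreg and in 63% and 98% for genotype in Treg, with 1.35% and 5.85% false calls.

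The same replicate number within a genotype is the same mouse, per the labels, and correlations of deviations between populations of a mouse were -0.01 to 0.09. Between genotypes a number joins different mice.

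A peak took the shortest protein-coding gene body it overlapped or the nearest within 50 kb. Peaks to name were the 5 with the largest ratio, the 8 with the largest dip in deficient mice, the 5 extremes of each direction in Treg cells, 1 for each gene with the most chosen peaks, the 2 strongest per gene list and those beside the thresholds. Some peaks under this rule are not reported here. Other named peaks were chosen after their values were seen. The chosen peaks and the gene lists were set with earlier results of these data known. The genome sequence was not used here, so distal sequences are not shown.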

Additional observations from a re-analysis of the deposited data

Results flagged for a closer look

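The genotype difference had opposite directions in Treg cells and their precursors. At the 958 chosen peaks the median log2 difference of KO from FL was -0.51 in Treg, where both KO library medians lay below both FL medians, and 0.33 in preTreg, where both lay above. At the 5421 peaks chosen without Treg libraries the medians were -0.33 in Treg and 0.23 in preTreg. The difference between the populations was not tested. The preTreg_FL libraries chose both sets, and with the choice on deficient libraries the preTreg median was 0.04.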

How the results depend on the processing

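The number of peaks that met the rule was 3650 with a ratio of 1.5, 61 with a ratio of 3, 525 with a level of 50 and 246 on deficient libraries. For Treg above preTreg in deficient mice, 18.0% of the 958 were called by DESeq2, 49.2% with a ratio of 3 and 97.2% with the rule on deficient libraries, which chose on that contrast. For all 3 populations these were 13.9%, 45.9% and 97.2%, and 18.7% with a ratio of 1.5. For Treg_KO below Treg_FL the share was 9.23% with a ratio of 1.5 and 1.63% with the rule on deficient libraries, and edgeR called 178 and DESeq2 62 of 573 peaks with an adjusted p. The median over the chosen peaks was -0.39 with a ratio of 1.5, -0.12 with the rule on deficient libraries, and -0.41 and -0.37 with the choice on 1 sufficient mouse. At the peaks open in Treg alone, a different set, it was 0.14, and the difference was above 0 in the other 3 populations too. That set was added after seeing the data, as was the choice of single positive and precursor peaks on deficient libraries. For preTreg_KO above preTreg_FL the share was 4.38% by DESeq2, 4.92% with a ratio of 3, 2.29% with a level of 50 and 0.813% with the rule on deficient libraries. In mSP 3 peaks were called by edgeR, 1 by DESeq2 and 2 with a ratio of 1.5, and in smSP 1 by edgeR, 1 by DESeq2, 1 with the replicate block and 2 with a ratio of 1.5. The cause of these shifts was not tested.

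Leaving out 1 library gave 20.6% to 25.4% for Treg above preTreg in deficient mice, 74.8% to 77.9% for mSP, 57.0% to 65.0% for smSP and 17.4% to 18.0% for all 3. It gave 2.09% to 21.0% for Treg_KO below Treg_FL, with medians of -0.58 to -0.42, and 1.09% to 17.9% with medians of -0.46 to -0.18 at the peaks chosen without Treg libraries. With the mouse as a replicate block the shares were 34.7% for Treg, 89.6% for mSP, 80.1% for smSP and 30.4% for all 3, and with the replicate number as a block 16.8% for Treg_KO below Treg_FL, 1.77% for preTreg and 8.41% at the peaks chosen without Treg libraries. With mouse T8 named by its descriptions, mSP gave 76.7% and smSP 70.4%. Of 1533 alternatives for the 122 called values of named peaks, 134 lost the call, 97 of them on leaving out a library, and 0 reversed. With 2 mice per genotype and a median of 38 to 76 reads per peak, a small difference at a weak peak cannot be told from counting noise.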
